A study of Mus musculus with 6 samples.

Results

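The 10 genes described here handle fatty acids in and around the capillary endothelium: Cd36, Fabp4, Fabp5, Lpl, Gpihbp1, Pparg, Slc27a3, Slc27a4, Acsl1 and Cpt1a. They were taken by name, and each name matched 1 Ensembl gene identifier among the 47729 genes counted. Reads were counted per gene in CD144-enriched cells, the fraction that magnetic beads against VE-cadherin (the adhesion protein of endothelial cell junctions) retained from ischemic mouse hindlimb muscle. The study asked what the long noncoding RNA LEENE, an enhancer RNA of endothelial cells (ECs), does for vessel growth and blood flow recovery when the diet resembles that of type 2 diabetes.

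The 6 libraries fell into 3 groups of 2. WT + GFP were wild-type mice whose muscle received an adenovirus carrying green fluorescent protein, KO + GFP were Leene-knockout mice that received the same virus, and KO + LEENE were Leene-knockout mice that received an adenovirus with the human RNA (LEENE overexpression, LEENE OE). Every group had eaten a high-fat, high-sucrose diet, had hindlimb ischemia surgery on day 0 and, per the labels, had virus put into the muscle on days 1 and 4, with the tissue taken after 1 week. No group without diet, ischemia or virus was analysed here. The knockout was 1 mouse line, made with CRISPR by deleting the mouse region syntenic to human LEENE and backcrossed to C57BL/6J. Virus injected into muscle is not limited to ECs. The labels give neither the age nor the sex of the animals, and no source says that the 2 libraries of a group came from separate mice. The headers of the count files carry 3 facility sample numbers, 1 for each group, so the P values below measure the spread between libraries, which may be technical, and genotype or vector cannot be told apart from anything else that set those 3 samples apart. The deleted locus and the human transcript were not analysed here, so these reads do not check the genotype labels.

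Fatty acids reach muscle and heart across the wall of the capillary. Lipoprotein lipase, held on the lumen side of the EC by GPIHBP1, frees them from triglyceride-rich particles. CD36 and the fatty acid transport proteins take them up, the cytosolic binding proteins FABP4 and FABP5 carry them through the cell, and the nuclear receptor PPARγ drives several of these genes in capillary ECs and in adipocytes. Acyl-CoA synthetases such as ACSL1 trap a fatty acid by joining it to coenzyme A, and CPT1A, the rate-limiting carnitine palmitoyltransferase of the outer mitochondrial membrane, commits it to oxidation.

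Totals ranged from 1770992 to 5602603 reads a library and were lowest in both KO + LEENE libraries. Mitochondrially encoded genes took 50.1% and 50.9% of the reads in WT + GFP and from 33.6% to 34.3% in the other 4 libraries. For most genes the libraries of a group lay close together: among genes with 20 or more reads in the pair, the median chi-square of a gene was 0.564 in the WT + GFP pair, 0.556 in the KO + GFP pair and 0.537 in the KO + LEENE pair, against 0.455 from counting error alone. Over the whole table each pair still differed by more than counting error (chi-square per degree of freedom 9.9999 for WT + GFP, 1.376 for KO + GFP and 1.197 for KO + LEENE), and they were kept as 2 libraries each. Between groups, in contrast, most genes differed: 6239 of the 8903 genes tested, or 70.1%, passed an adjusted P of 0.05 in KO + GFP against WT + GFP, with 34.2% higher and 35.9% lower. For LEENE OE (KO + LEENE against KO + GFP) the share was 67.8%, with 32.8% higher and 34.9% lower. For KO + LEENE against WT + GFP it was 70.7%, with 33.9% higher and 36.9% lower. The balance of directions depends on the scaling: with library size in place of TMM, 2639 genes were higher and 3937 lower by KO, 4474 higher and 2189 lower by LEENE OE, and 3869 higher and 2588 lower in the last comparison. Any count of changed genes has to be read against these shares. Levels are given as normalized CPM (counts per library size, scaled as CPM after TMM), on which 3 reads, the floor set for detection, correspond to 0.695 to 1.17.

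The fraction was checked against markers of ECs. All 16 EC markers had more than 3 reads in some library, and Pecam1 had 211 and 175 reads in the WT + GFP pair, 140 and 89 in the KO + GFP pair and 95 and 110 in the KO + LEENE pair. Cdh5, which encodes VE-cadherin itself, had 332 and 283, 322 and 196, and then 5 and 18 reads in the same order, and fell by LEENE OE (log2 fold change -4.26 ± 0.22 SE, adjusted P = 2.59e-71). Other markers of the list went different ways. Kdr had 808 and 708, 13 and 9, and 47 and 41 reads, Flt1 had 502 and 451, 7 and 3, and 5 and 5, and Erg had 417 and 345, 149 and 70, and 8 and 4. Of the 12 EC markers tested, 4 were higher by KO (Tie1, Emcn, Vwf and Robo4) and 4 lower (Pecam1, Kdr, Erg and Flt1), and 3 were higher and 7 lower by LEENE OE. EC transcripts were thus read in all 3 groups, in a different mix in each, and the gene of the protein the beads bind was low in KO + LEENE. The summed EC markers ranged from 532 to 567 normalized CPM in the WT + GFP pair, 4071 to 4153 in the KO + GFP pair and 229 to 237 in the KO + LEENE pair, and Emcn alone held 3330 and 3363 of the KO + GFP sums.

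The genomic starts of Cpt1a, Acsl1 and the uptake receptor Cd36 are shown because these genes are known targets of PPAR nuclear receptors. They were also picked because Cpt1a rose and Acsl1 fell by KO in the main test. The fall of Acsl1 rests on few reads, and its call was lost with DESeq2 (adjusted P = 0.0839). RefSeq promoter windows (250 bases before to 50 after a start) on GRCm38.p6 held 9 starts for 6 of the 10 genes (Cd36, Pparg, Slc27a3, Slc27a4, Acsl1 and Cpt1a), and none was held for Fabp4, Fabp5, Lpl or Gpihbp1. The 250 bases before the start are printed 5′ to 3′ on the gene's own strand, and capitals mark the nuclear receptor half-site AGGTCA or its reverse complement TGACCT. They lie at chr19:3323051-3323300 on the plus strand for Cpt1a, at chr8:46470787-46471036 on the plus strand for the first start of Acsl1, and at chr5:17835897-17836146 on the minus strand for Cd36, whose RefSeq start lies inside the longer gene model used for counting.
Cpt1a: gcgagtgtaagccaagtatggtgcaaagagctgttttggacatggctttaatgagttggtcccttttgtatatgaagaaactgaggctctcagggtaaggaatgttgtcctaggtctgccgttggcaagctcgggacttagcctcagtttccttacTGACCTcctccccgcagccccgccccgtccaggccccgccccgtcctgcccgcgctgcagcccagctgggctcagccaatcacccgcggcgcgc
Acsl1: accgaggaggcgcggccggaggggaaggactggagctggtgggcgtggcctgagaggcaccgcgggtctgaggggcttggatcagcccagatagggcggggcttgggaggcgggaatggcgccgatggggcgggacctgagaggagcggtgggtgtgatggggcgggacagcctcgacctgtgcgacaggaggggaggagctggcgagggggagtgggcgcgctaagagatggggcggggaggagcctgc
Cd36: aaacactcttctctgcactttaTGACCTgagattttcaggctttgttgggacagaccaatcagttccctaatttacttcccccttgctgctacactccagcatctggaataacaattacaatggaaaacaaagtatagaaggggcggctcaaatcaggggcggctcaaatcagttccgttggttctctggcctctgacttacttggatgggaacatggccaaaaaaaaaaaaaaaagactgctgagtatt

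The half-site began 94 bases before the start of Cpt1a and 228 bases before that of Cd36, on the opposite strand in both. It was also found on the gene's strand 28 and 9 bases before 2 of the 3 starts of Pparg, and at neither start of Acsl1. In all, 4 of the 9 windows held AGGTCA on either strand, as did 16.3% of all 32851 RefSeq windows. The direct repeat AGGTCANAGGTCA, which contains the half-site and is the form PPAR-RXR pairs are known to bind, was present in 0.0396% of all windows and in none of the 9. The E-box CACGTG was in 7.15% of all windows and in none of the 9, and the TATA box TATAAA was in 13.6% of all and in 1 of the 9, the second start of Pparg, 29 bases before it on the opposite strand. Base composition differed widely, with a GC content of 62.3% for Cpt1a, 74.0% for the first start of Acsl1 and 43.0% for Cd36, against a median of 52.7% over all windows. These matches are a description of the letters in the window.

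Of the 10 genes, 6 passed the filter on low counts (Cd36, Fabp4, Fabp5, Lpl, Acsl1 and Cpt1a), and the other 4 had 3 or fewer reads in every library. Acsl1 passed through the WT + GFP libraries alone. Among the 6 tested, 4 were higher and 1 lower in KO + GFP relative to WT + GFP, so 5 of 6 stand against the 70.1% of all tested genes. By LEENE OE, 4 were lower and 0 higher, against 67.8% of all genes. For KO + LEENE set against WT + GFP, 2 were lower and 4 did not pass, against 70.7%. The median log2 fold change of the 6 was 1.21 by KO, where that of all tested genes was -0.09, then -1.43 by LEENE OE against -0.01, and -0.48 for KO + LEENE set against WT + GFP against -0.11. The number of genes called was thus near the background in each of the first 2 comparisons, and in both of them Fabp4 and Cpt1a had the widest differences of the 6.

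**Figure D1:**
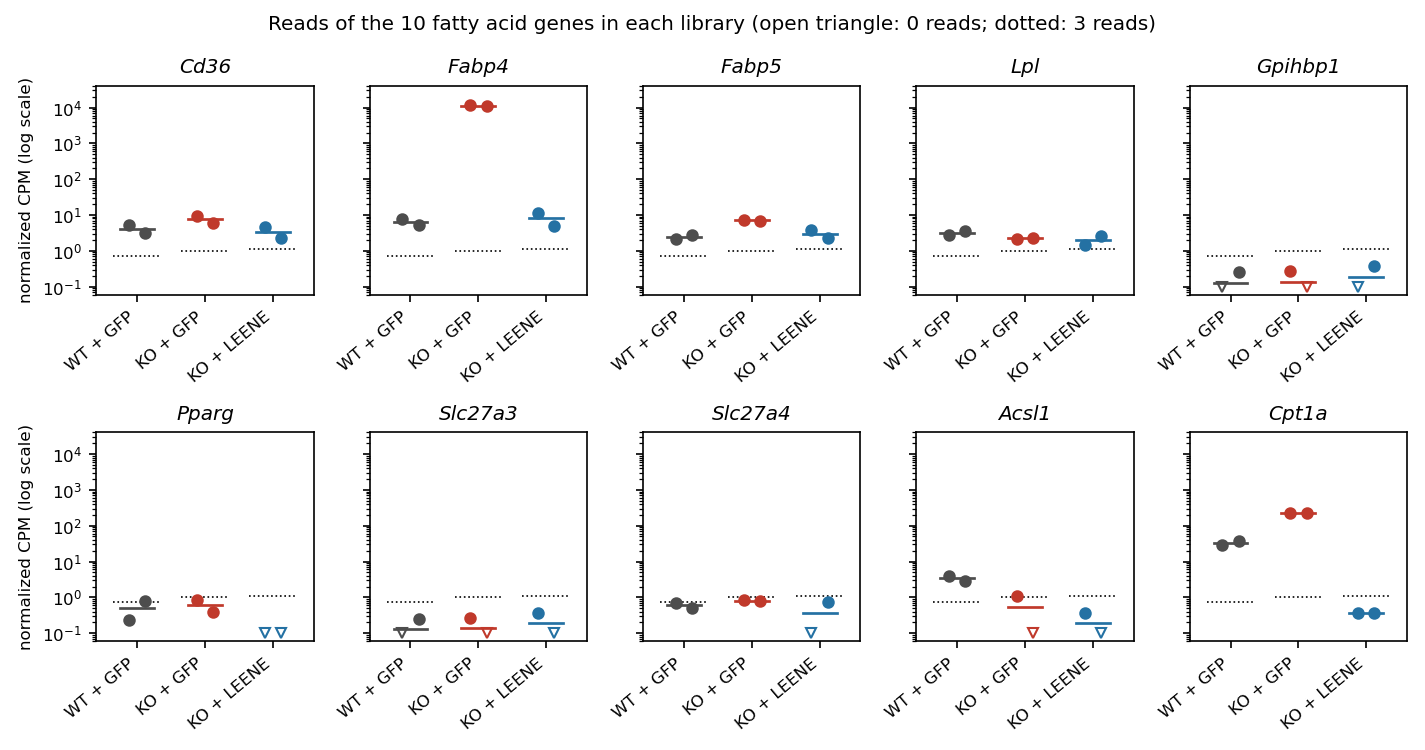
Normalized CPM (log axis) of the 10 fatty acid genes in each of the 6 libraries, by group; points are libraries, bars the mean of a group's 2 libraries, open triangles libraries with 0 reads and dotted lines the level of 3 reads. Fabp4 stood at 11780 and 10734 in KO + GFP and at 11.6 or less elsewhere, and Cpt1a at 233 and 229 in KO + GFP and at 0.37 in both KO + LEENE libraries.

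Of the genes for uptake at the membrane, Cd36 encodes the fatty acid translocase of capillary ECs (ENSMUSG00000002944, chromosome 5, 17781690 to 17888801). It had 23 and 12 reads in the WT + GFP pair, 34 and 15 in the KO + GFP pair and 12 and 6 in the KO + LEENE pair. As normalized CPM the means were 4.20 ± 1.60 (SD, n = 2 libraries), 7.54 ± 2.41 and 3.36 ± 1.61. Both KO + GFP libraries lay above all 4 others, by little, and WT + GFP and KO + LEENE overlapped. Cd36 rose by KO with a log2 fold change of 0.87 ± 0.35 (SE, adjusted P = 0.0206) and fell by 1.21 ± 0.42 on the log2 scale by LEENE OE (adjusted P = 0.0060). These calls rest on few reads. The first was lost without WT + GFP replicate 2 (adjusted P = 0.273) or KO + GFP replicate 1 (0.448), and the second without KO + GFP replicate 1 (0.237) or KO + LEENE replicate 2 (0.177). Neither passed with DESeq2 (0.219 and 0.118), without the filter on low counts (0.118 and 0.0582) or with library size in place of TMM, where the log2 fold changes were 0.39 (0.318) and -0.06 (0.910). For KO + LEENE set against WT + GFP the log2 difference was -0.34 ± 0.45 (adjusted P = 0.510).

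The transport proteins Slc27a3 (ENSMUSG00000027932, chromosome 3, 90385239 to 90389938) and Slc27a4 (ENSMUSG00000059316, chromosome 2, 29802634 to 29817522), which couple uptake to acyl-CoA formation, were at the limit of detection. Slc27a3 had 1 read in 1 library of each group and 0 in the other. Slc27a4 had 3 and 2 reads in the WT + GFP pair, 3 and 2 in the KO + GFP pair and 0 and 2 in the KO + LEENE pair, and 1 other gene, Gm75196, is similar enough in sequence to share reads with it. No difference in either could be detected at this depth.

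The widest differences by KO and by LEENE OE among the members were those of Fabp4, the fatty acid binding protein of adipocytes, macrophages and capillary ECs (ENSMUSG00000062515, chromosome 3, 10204088 to 10208576, minus strand). It had 33 and 20 reads in the WT + GFP pair, 43315 and 27603 in the KO + GFP pair, and 31 and 13 in the KO + LEENE pair. In normalized CPM this was 7.65 and 5.11, then 11780 and 10734, then 11.6 and 4.81, so both KO + GFP libraries stood far above the other 4, which overlapped. Within KO + GFP the SD was 739 around a mean of 11257. The log2 fold change was 10.77 ± 0.16 (SE) by KO and -10.42 ± 0.16 by LEENE OE, and both adjusted P values were smaller than the software could represent. The ratio of KO + GFP to WT + GFP from pooled reads was 1762, with an exact 95% counting interval from 1347 to 2352. Fabp4 kept its direction and its call by KO and by LEENE OE under all 14 alternative settings run for each.

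By its share of reads Fabp4 was a minor gene in the wild-type fraction and among the top genes in KO + GFP. It took 0.000728% and 0.000485% of WT + GFP reads, where it ranked 3258 and 4045 among all genes, and 0.773% and 0.761% of KO + GFP reads, where it ranked 23 in both libraries. In KO + LEENE it ranked 2524 and 3893. Of all reads on the 10 members, Fabp4 held 97.9% and 97.8% in KO + GFP, against 14.9% and 8.97% in the WT + GFP pair and 51.7% and 36.1% in the KO + LEENE pair. For KO + LEENE set against WT + GFP its log2 difference was 0.35 ± 0.20 (adjusted P = 0.294), and its sign depended on which KO + LEENE library was kept. It was -0.37 (adjusted P = 0.474) without replicate 1 and 0.90 (adjusted P = 0.0140) without replicate 2.

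Fabp5, the epidermal-type binding protein that capillary ECs express beside Fabp4 (ENSMUSG00000027533, chromosome 3, 10012548 to 10016607, plus strand), moved far less. It had 9 and 11 reads in the WT + GFP pair, 27 and 18 in the KO + GFP pair, and 10 and 6 in the KO + LEENE pair. Mean normalized CPM were 2.45 ± 0.51 (SD), 7.17 ± 0.24 and 2.98 ± 1.08, with both KO + GFP libraries above the other 4. Fabp5 rose by KO (log2 fold change 1.55 ± 0.41 SE, adjusted P = 2.90e-04) and fell by LEENE OE (-1.26 ± 0.44, adjusted P = 0.00664), and the second call was lost without KO + GFP replicate 1 (0.05004), without KO + LEENE replicate 2 (0.130), with DESeq2 (0.0679), without the filter on low counts (0.0602) and with library size in place of TMM (-0.11, 0.836). For KO + LEENE set against WT + GFP the log2 difference was 0.29 ± 0.53 (adjusted P = 0.642). The transcripts of 5 other genes, Fabp5l2, Gm13998, Gm14328, Gm6100 and Gm6166, were at least 90% identical to Fabp5 over 300 bases or more, so its reads may be split with these copies and its level is uncertain.

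Fabp4 and Fabp5 lie 187480 bp apart in a cluster of fatty acid binding protein genes on chromosome 3. That interval was looked at after the Fabp4 values were seen. From Fabp5 to Fabp12 the annotation used for counting holds 12 genes, and of the 10 besides Fabp4 and Fabp5, 7 had no read in any library and none had more than 8. Pmp2 and Fabp9, which encode binding proteins of myelin and testis, had 0 reads in all 6 libraries. Fabp12 had 5 and 8 reads in the WT + GFP pair, 1 and 0 in the KO + GFP pair and 0 and 1 in the KO + LEENE pair. No gene model overlapped the exons of Fabp4.

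Of the pair of members for lipoprotein lipolysis, Lpl alone was tested and it was not called. Lpl, which encodes the lipase (ENSMUSG00000015568, chromosome 8, 68880491 to 68907448), had 12 and 14 reads in the WT + GFP pair, 8 and 6 in the KO + GFP pair and 4 and 7 in the KO + LEENE pair, or means of 3.18 ± 0.56 (SD), 2.25 ± 0.11 and 2.04 ± 0.77 normalized CPM. WT + GFP lay above the other 4 libraries, and the KO + GFP and KO + LEENE libraries overlapped. The log2 differences were -0.49 ± 0.52 (SE, adjusted P = 0.406) by KO, -0.13 ± 0.63 (0.883) by LEENE OE and -0.62 ± 0.55 (0.319) for KO + LEENE set against WT + GFP. Gpihbp1, the endothelial anchor of the lipase (ENSMUSG00000022579, chromosome 15, 75596628 to 75599481), had 1 read in 1 library of each group and 0 in the other, although it is known as a defining gene of capillary ECs in muscle.

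Pparg, the nuclear receptor that drives Fabp4 and Cd36 in capillary ECs and adipocytes (ENSMUSG00000000440, chromosome 6, 115360951 to 115490399), had 1 and 3 reads in the WT + GFP pair, 3 and 1 in the KO + GFP pair and 0 and 0 in the KO + LEENE pair. All values were at or under the floor of 3 reads, and no difference was detectable at this depth.

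Inside the cell, the fatty acid activating enzyme Acsl1 and the carnitine shuttle enzyme Cpt1a behaved differently from each other by KO. Acsl1 (ENSMUSG00000018796, chromosome 8, 46471041 to 46536051) had 17 and 11 reads in the WT + GFP pair, 4 and 0 in the KO + GFP pair and 1 and 0 in the KO + LEENE pair. WT + GFP lay above the other 4 libraries, while KO + GFP and KO + LEENE overlapped. Acsl1 fell by KO, with a ratio of 0.188 (exact 95% counting interval 0.0479 to 0.538, adjusted P = 0.00114), a call lost without KO + GFP replicate 2 and with DESeq2 (0.0839). Its log2 fold change of -2.34 moved to -6.47 without KO + GFP replicate 1 and to -1.59 without replicate 2. Acsl1 was also lower in KO + LEENE than in WT + GFP, with 1 read against 28, a ratio of 0.0547 (interval 0.00134 to 0.331, adjusted P = 6.11e-05). By LEENE OE, with 1 read against 4, the log2 difference was -1.60 ± 1.43 (adjusted P = 0.328).

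Cpt1a (ENSMUSG00000024900, chromosome 19, 3323301 to 3385732) differed between all 3 groups. It had 124 and 148 reads in the WT + GFP pair, 857 and 590 in the KO + GFP pair and 1 and 1 in the KO + LEENE pair. Normalized CPM were 28.7 and 37.8, then 233 and 229, then 0.37 in both, so no 2 groups overlapped and KO + LEENE was under the floor. By KO the mean rose from 33.3 ± 6.44 (SD) to 231 ± 2.57, a log2 fold change of 2.80 ± 0.11 (SE, adjusted P = 4.67e-121). By LEENE OE it fell to 2 reads against 1447, a ratio of 0.00161 (exact 95% counting interval 0.000194 to 0.00582, adjusted P = 9.36e-183). Against WT + GFP, KO + LEENE had 2 reads for 272, a ratio of 0.0113 (interval 0.00136 to 0.0411, adjusted P = 1.89e-46). KO + LEENE thus overlapped WT + GFP for Fabp4 and lay below it for Cpt1a. By rank Cpt1a moved from 1641 and 1410 in WT + GFP to 516 and 487 in KO + GFP and to 10920 and 11153 in KO + LEENE. All 3 calls held under the 13 alternative settings in which the gene was tested.

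**Figure D2:**
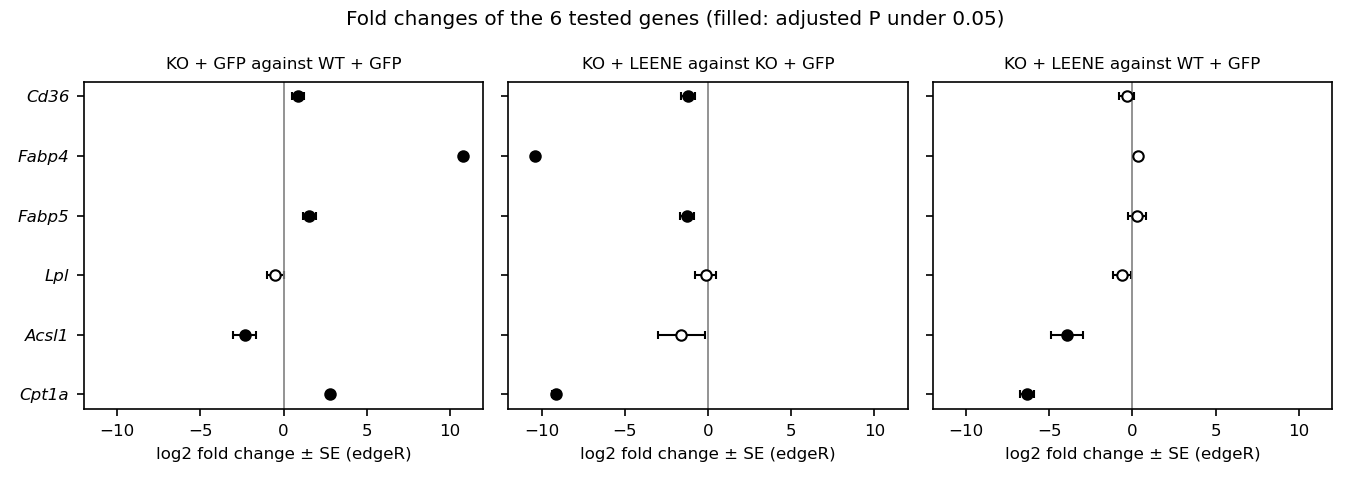
Log2 fold change ± SE (x axis, edgeR) of the 6 tested fatty acid genes in each comparison; filled points passed an adjusted P of 0.05. Fabp4 was at 10.77 by KO and -10.42 by LEENE OE, Cpt1a at 2.80, -9.14 and -6.34 in the 3 comparisons, and the other 4 genes between -3.94 and 1.55.

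Without Fabp4 and Cpt1a the list was sparse. The other 8 genes together had 65 and 55 reads in the WT + GFP pair, 81 and 42 in the KO + GFP pair and 28 and 22 in the KO + LEENE pair, or 15.1 and 14.1, 22.03 and 16.3, and 10.5 and 8.13 normalized CPM. On this TMM scale KO + GFP was highest and KO + LEENE lowest, with no overlap between groups. That order depends on the scaling. When the same sums were divided by total reads instead, all groups overlapped, and the highest value was that of KO + LEENE replicate 1. Among the 8903 tested genes, the profile over the 6 libraries closest to that of Fabp4 was that of Emcn, the endothelial sialomucin endomucin, at a root mean square distance of 0.40 on the log2 scale. Emcn had 14 and 8 reads in the WT + GFP pair, 12245 and 8648 in the KO + GFP pair and 8 and 7 in the KO + LEENE pair. The next was the cholesterol exporter Abca1 (0.46), with 27 and 41, 52426 and 34436, and 26 and 23 reads, and 8 genes in all lay within 0.5 of Fabp4.

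For Cpt1a the closest were Wbp4, a splicing factor (distance 0.26), with 209 and 172, 923 and 606, and 2 and 1 reads, and the chromatin remodeler Chd4 (0.34), with 450 and 450, 1972 and 1362, and 10 and 6 reads. Within 0.5 of Cpt1a lay 7 genes. Cd36 and Fabp5, whose profiles were flat by comparison, had 342 and 402 genes within that distance, led by Grin2d (0.14) and Ptk7 (0.16) for Cd36 and by Snrk (0.12) and Gm16200 (0.13) for Fabp5. A fixed distance takes in fewer genes where a profile spans a wider range, so these counts do not show how common a rise and fall of any size was.

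Other genes of fatty acid handling were read from a list of 85, grouped by role. Of these, 27 were tested, and 38 had 3 or fewer reads in every library, 4 of them with none. By KO, 8 of the 27 were higher, 7 lower and 12 not called, by LEENE OE 8 were higher, 11 lower and 8 not called, and for KO + LEENE set against WT + GFP 9 were higher, 11 lower and 7 not called. These counts stand beside 34.2% higher and 35.9% lower of all tested genes by KO, 32.8% and 34.9% by LEENE OE, and 33.9% and 36.9% in the last comparison. With library size in place of TMM the balance turned, to 5 higher and 11 lower by KO, 13 higher and 5 lower by LEENE OE and 11 higher and 9 lower in the last. The median log2 fold changes were 0.37, -0.10 and -0.04, against -0.09, -0.01 and -0.11 for all tested genes.

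In uptake and intracellular binding, 3 of 13 genes were tested. Cav1, which encodes the caveolin of endothelial caveolae, had 91 and 73 reads in the WT + GFP pair, 1066 and 643 in the KO + GFP pair and 42 and 28 in the KO + LEENE pair, and the groups did not overlap. It rose by KO (log2 fold change 3.77 ± 0.11, adjusted P = 1.70e-171) and fell by LEENE OE (-4.38 ± 0.14, adjusted P = 4.75e-162), the same order of groups as Cpt1a. Got2, the mitochondrial aspartate aminotransferase also known as the plasma membrane fatty acid binding protein, had 0 reads in the WT + GFP pair, 3 and 1 in the KO + GFP pair and 15 and 13 in the KO + LEENE pair and rose by LEENE OE (adjusted P = 2.06e-05). It passed the filter on low counts through the KO + LEENE libraries alone. Fabp3, the binding protein of muscle fibers, had 1 read in 1 KO + LEENE library and 0 in the other 5.

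Among 12 genes of lipoprotein lipolysis and receptors, 4 were tested. Lrp1, a receptor for remnant particles, had 50 and 80 reads in the WT + GFP pair, 45 and 25 in the KO + GFP pair and 86 and 107 in the KO + LEENE pair, and rose by LEENE OE (log2 fold change 1.68 ± 0.22, adjusted P = 1.22e-13). It was also higher in KO + LEENE than in WT + GFP (1.18 ± 0.19, adjusted P = 2.55e-09). Apoe and Lipa, the ligand of those receptors and the lysosomal lipase, were called higher by KO and lower by LEENE OE. Apoe reads went from 33 and 36 to 62 and 31 by KO, and KO + LEENE held 1 and 0. Per total reads, in place of TMM, the WT + GFP and KO + GFP libraries overlapped for Apoe. Lipa had 1 and 2 reads in the WT + GFP pair, 43 and 36 in KO + GFP and 1 in each KO + LEENE library. It passed the filter on low counts through the KO + GFP libraries alone.

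Oxidation genes went in different directions. Of 16 genes of mitochondrial beta oxidation 6 were tested. Acat1, the acetoacetyl-CoA thiolase that works in ketone body use and isoleucine breakdown, had 3 and 1 reads in the WT + GFP pair, 1683 and 1053 in the KO + GFP pair and 1 and 0 in the KO + LEENE pair. Acat1 passed the filter on low counts through the KO + GFP libraries alone, the group where it was highest. It rose by KO (adjusted P = 4.35e-297), and with WT + GFP at or under the floor the size of the rise is loosely set: the ratio of pooled reads was 900.5 with an exact 95% counting interval from 351 to 3307, and the log2 fold change was 10.49 without WT + GFP replicate 1 and 9.19 without replicate 2. It fell by LEENE OE with 1 read for 2736, a ratio of 0.000425 (interval 1.08e-05 to 0.00237, adjusted P = 6.18e-260). The log2 fold change was -10.92, but -13.54 without KO + LEENE replicate 1 and -10.0 without replicate 2. Hadha, the alpha subunit of the trifunctional protein of long-chain oxidation, had 30 and 36, 116 and 79, and 34 and 22 reads, rose by KO (1.95 ± 0.22, adjusted P = 1.19e-17) and fell by LEENE OE (-1.58 ± 0.23, adjusted P = 5.90e-11). Per total reads, in place of TMM, the fall of Hadha by LEENE OE was smaller. Its partner subunit Hadhb had 16 and 16, 9 and 7, and 38 and 28 reads, a log2 difference of -0.60 ± 0.47 by KO that was not called (adjusted P = 0.257), and rose by LEENE OE (adjusted P = 3.19e-08). By KO, 2 of the 6 were lower: Echs1 (log2 fold change -0.53 ± 0.10, adjusted P = 8.14e-07) and the electron transfer dehydrogenase Etfdh, which had 42 and 39 reads in the WT + GFP pair, 1 and 0 in the KO + GFP pair and 1 and 2 in the KO + LEENE pair. Etfdh passed the filter on low counts through the WT + GFP libraries alone.

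The thiolase Acaa2 was read in 1 group alone, with 0 reads in all 4 GFP libraries and 71 and 77 in KO + LEENE, and it passed the filter on low counts through that group alone. It was at least 27.8-fold higher by LEENE OE (adjusted P = 1.28e-37) and at least 37.7-fold higher than in WT + GFP (adjusted P = 2.96e-44), taking 3 reads per library as the floor. The enoyl-CoA hydratase Echs1 had 446 and 442, 296 and 175, and 193 and 215 reads and was lower in KO + LEENE than in WT + GFP (log2 fold change -0.51 ± 0.11, adjusted P = 3.59e-06, but 0.16 with library size in place of TMM). Of the 6 other carnitine shuttle genes, 1 was tested, the carnitine-acylcarnitine translocase Slc25a20, and the muscle isoform Cpt1b had 1 read in 1 library, so the shuttle could be followed in few genes besides Cpt1a. Of the exon bases of Cpt1b, 81.4% are shared with Chkb, so its reads may be undercounted.

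Triglyceride storage and lipolysis held the gene of the list with the most reads, Lipe, which encodes hormone-sensitive lipase, with 18882 and 17548 reads in the WT + GFP pair, 11134 and 7507 in the KO + GFP pair and 6122 and 6139 in the KO + LEENE pair. It fell by KO (log2 fold change -0.58 ± 0.10, adjusted P = 2.68e-08) and by LEENE OE (-0.38 ± 0.10, adjusted P = 2.65e-04, but 0.77 with library size in place of TMM), and was also lower in KO + LEENE than in the WT + GFP pair (-0.96 ± 0.10, adjusted P = 4.57e-20). Of its exon bases, 15.6% are shared with 4732471J01Rik, so some of these reads may belong to that gene. In all, 4 of 15 genes of this role were tested, and Lpin1, a phosphatidate phosphatase, was the other one to fall by KO, from 39 and 36 reads to 2 and 0. Lpin1 passed the filter on low counts through the WT + GFP libraries alone.

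Among 14 regulators, 5 were tested. Rxrb and Rxra encode retinoid X receptors, the partners of PPARs on DNA. Rxrb had 5 and 2 reads in the WT + GFP pair, 6 and 4 in the KO + GFP pair and 1011 and 1026 in the KO + LEENE pair, and Rxra had 8 and 16, 4 and 7, and 196 and 211. Both rose by LEENE OE (log2 fold change 7.85 ± 0.18, adjusted P = 6.19e-247 for Rxrb, and 5.40 ± 0.27, adjusted P = 1.42e-73 for Rxra) and were higher in KO + LEENE than in WT + GFP (8.74 ± 0.18, adjusted P = 8.82e-275, and 4.68 ± 0.23, adjusted P = 1.26e-78). Rxrb passed the filter on low counts through the KO + LEENE libraries alone.

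Vegfb, a growth factor known for its part in endothelial fatty acid transport, had 474 and 472 reads in the WT + GFP pair, 5 and 6 in the KO + GFP pair and 138 and 155 in the KO + LEENE pair. It fell by KO (log2 fold change -6.0 ± 0.23, adjusted P = 1.40e-119), and the KO + LEENE libraries lay between the other groups. Srebf1, which drives fatty acid synthesis, had 120 and 93, 21 and 17, and 4 and 6 reads and fell by KO (-2.08 ± 0.25, adjusted P = 1.61e-15), with 3.11% of its exon bases shared with other genes. Vegfb and Srebf1 thus went opposite to Fabp4 and Cpt1a by KO.

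**Figure D3:**
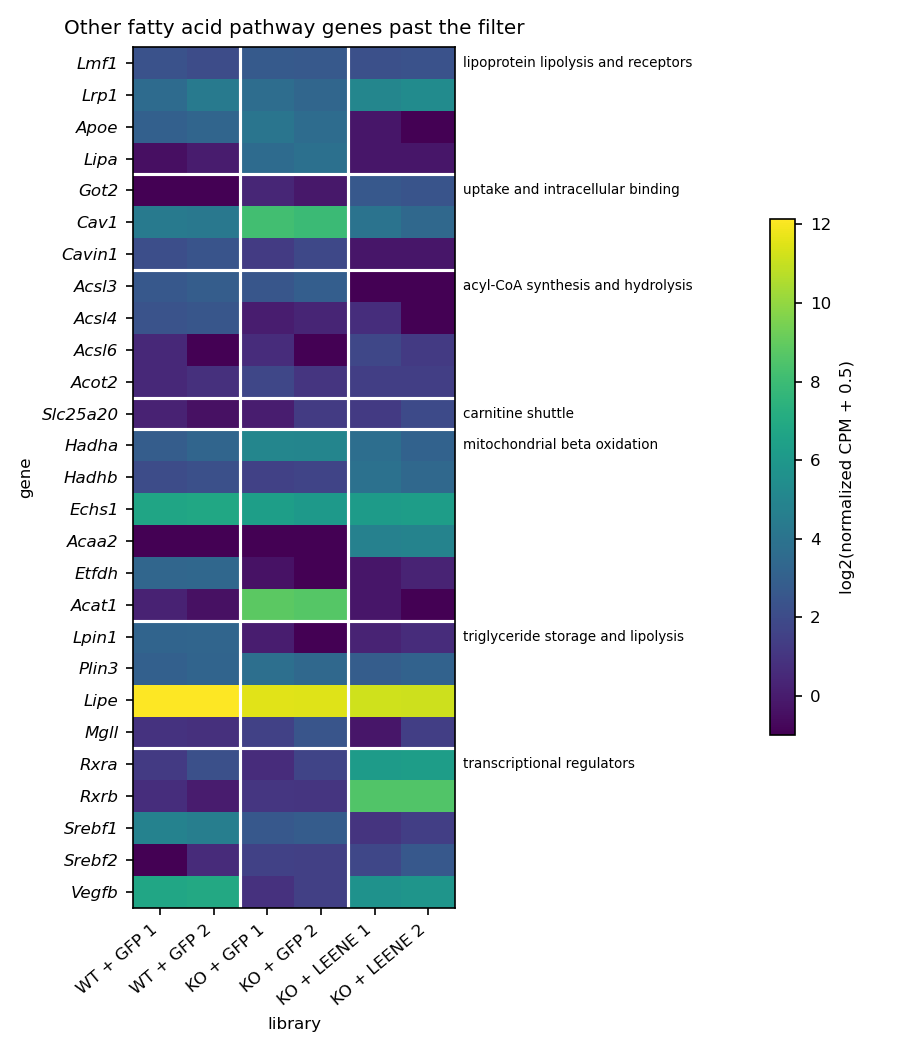
Log2 of normalized CPM plus 0.5 (color scale) of the 27 tested pathway genes outside the 10 members, by role (rows), in the 6 libraries (columns). Acat1 and Cav1 are brightest in KO + GFP, Acaa2, Rxra and Rxrb in KO + LEENE, and Vegfb is dark in KO + GFP alone.

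Several members are known in cells other than ECs, and markers of other cells are given beside them. In a bulk fraction, fewer cells of a type and less RNA per cell cannot be told apart. The 7 fibroblast markers summed to 65.1 to 72.9 normalized CPM in the WT + GFP pair, 22342 to 24290 in the KO + GFP pair and 54.3 to 54.7 in the KO + LEENE pair, with Dcn at 53 and 62, 63633 and 40842, and 42 and 45 reads, while the fibroblast receptor Pdgfra had 171 and 141, 119 and 93, and 65 and 66. Dcn, Col3a1 and Col1a2 held nearly all of the KO + GFP sum. Pdgfra was not called by KO, and Lum and S100a4 had 1 read or fewer in every library. The 10 macrophage markers summed to 31.5 to 42.7, 1138 to 1285 and 9.24 to 11.6, of which 5 were tested, and Adgre1 had 1 and 2, 1823 and 1060, and 3 and 1 reads. C1qb went the other way, with 32 and 37, 1 and 5, and 3 and 2 reads, and was called lower by KO, and Itgam, Cd68, C1qa and C1qc had 3 or fewer reads in every library. Adgre1 passed the filter on low counts through the KO + GFP libraries alone, and C1qb through the WT + GFP libraries alone. The part of these cells in the Fabp4 result was not tested.

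Adipocyte markers, of a cell type known to express Fabp4, were mixed. Adipoq had 1 read in 1 WT + GFP library and 0 in the other 5, and Plin1 had 27 and 18 reads in the WT + GFP pair, 11 and 6 in the KO + GFP pair and 6 and 13 in the KO + LEENE pair. The 8 adipocyte markers summed to 7.16 to 10.7, 20.6 to 26.1 and 21.0 to 23.3 normalized CPM, with 2 tested. Lep, the leptin gene, held most of the KO + GFP and KO + LEENE sums, with 13 and 4, 78 and 43, and 45 and 44 reads, and was called higher by KO, while Plin1 was called lower. The part of adipocytes in the Fabp4 result was not tested. Capillary EC markers summed to 100 to 102, 1402 to 1572 and 519 to 524, but 1 of the 8, Sgk1, was the only one tested, with 418 and 387, 5776 and 3603, and 1387 and 1396 reads.

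The 12 fiber markers summed to 12.3 to 15.1, 61.4 to 66.6 and 42.1 to 43.8 normalized CPM, with Ckm at 1 read in 1 WT + GFP library and 0 in the others and Acta1 at 2 and 1, 7 and 2, and 53 and 43 reads. Of the 5 tested, those higher by KO were Myh4, with 1 and 3, 102 and 65, and 1 and 0 reads, Pvalb, with 0 and 0, 74 and 52, and 0 and 1, and Ttn, with 29 and 31, 53 and 33, and 58 and 63. Myh4 and Pvalb passed the filter on low counts through KO + GFP alone, and Acta1 through KO + LEENE alone. Myh1 was lower by KO, and by LEENE OE Myh4 and Pvalb were lower and Acta1 and Ttn higher. The 8 mural markers summed to 4.60 to 4.63, 5.06 to 7.34 and 25.5 to 33.6, and Pdgfrb had 3 or fewer reads in every library. Rgs5, with 2 and 4, 21 and 5, and 51 and 69 reads, was called higher by KO and by LEENE OE, and Myh11, with 2 and 4, 1 and 3, and 9 and 13, by LEENE OE. Myh11 passed the filter on low counts through the KO + LEENE libraries alone. The part of these cells in the member values was not tested.

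**Figure D4:**
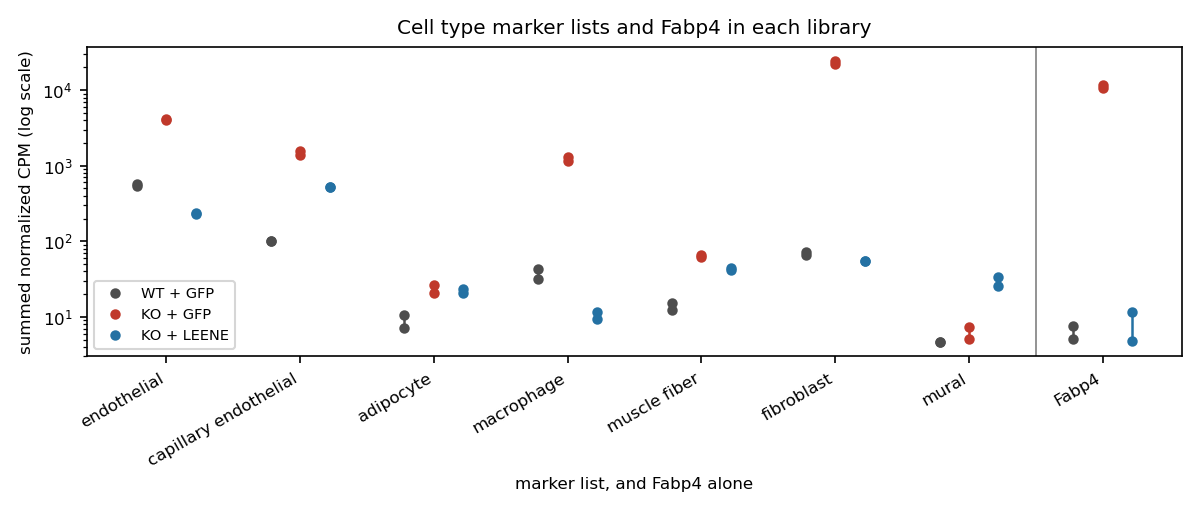
Summed normalized CPM (log axis) of 7 cell type marker lists, and of Fabp4 alone, in the 6 libraries; points are libraries. Fibroblast, macrophage and endothelial sums and Fabp4 are all highest in KO + GFP, at 22342 to 24290, 1138 to 1285, 4071 to 4153 and 10734 to 11780, and the adipocyte sum is at 26.1 or less in every library. Of the 12 tested endothelial markers 4 were higher and 4 lower by KO. In KO + GFP, Emcn held most of the endothelial sum and Dcn most of the fibroblast sum.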

How the data were processed

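Libraries were made from CD144-enriched cells with a 3′ single-cell expression kit without its droplet step. Per the file headers, the authors counted uniquely aligned reads over the exons of each Ensembl gene on GRCm38 with featureCounts (Subread 2.0.0), without strand and with no collapsing of molecular identifiers named, so the deposited values are unnormalized read counts, and copies of 1 molecule are not told apart. The submitters' processing notes also name bcl2fastq 2.18, STAR 2.5.4b and mm10, and the study's methods give another mouse build, which was not used here. Intervals and floors cover counting error only. Depth was 1770992 to 5602603 reads a library.

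Identifiers were named with GENCODE vM39 (43465 matched, 4264 did not). All 47729 genes entered 1 table, and 8903 passed edgeR's filterByExpr with its minimum count of 10. The quasi-likelihood test of edgeR 4.0.16 (R 4.3.3) was fitted to all 6 libraries with TMM scaling, a mean per group and no covariates. P values were adjusted by Benjamini-Hochberg over all tested genes, and an adjusted P under 0.05 is a call. The SE of a log2 fold change was approximated from the change and its F value. Ratios of pooled reads carry exact 95% intervals. DESeq2 1.42.0 served as an alternative, since the study used it, beside other scalings, filters, subsets of libraries and a block by replicate number. Scripts were tested on simulated counts. Groups came from the sample titles, which give replicate numbers. Similar transcripts were sought with BLAST 2.17.0.

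The 10 members and all gene lists were chosen with earlier results of these data known. From each role of the pathway list and each comparison, up to 2 called genes were named, those with the largest log2 fold change among genes whose groups do not overlap and whose higher group averaged at least 20 normalized CPM. Further genes named in the text (Got2, Fabp3, Apoe, Lipa, Hadhb, Etfdh, Slc25a20, Cpt1b, Lpin1, Emcn, Kdr, Flt1, Erg, Tie1, Vwf, Robo4, Sgk1, Lep, Myh1, Myh4, Pvalb, Ttn, C1qb, Itgam, Cd68, C1qa, C1qc, Rgs5, Myh11, Dcn, Col3a1, Col1a2, Lum and S100a4 among the marker and pathway lists, and the Fabp cluster) were picked after their values were seen. For the 4 members with the highest mean, the 2 closest tested profiles were taken by root mean square difference of centered log2 CPM with a prior count of 2.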

Additional observations from a re-analysis of the deposited data

How the results depend on the processing

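Fabp4 and Cpt1a kept their calls by KO and by LEENE OE in every alternative in which they were tested, and the other members did not all do so. With library size in place of TMM, the median log2 fold change of all tested genes moved to -0.57 by KO, 1.07 by LEENE OE and 0.50 for KO + LEENE set against WT + GFP, and changes should be read relative to it: under that setting 2 members were called by LEENE OE, the Cd36 values were 0.39 by KO (adjusted P = 0.318), -0.06 by LEENE OE (0.910) and 0.32 against WT + GFP (0.533), Fabp5 was -0.11 by LEENE OE (0.836), Fabp4 passed against WT + GFP at 1.02 (0.00119), Lpl was 1.01 by LEENE OE (0.142) and 0.042 against WT + GFP (0.959), Lipe was 0.77 by LEENE OE (8.49e-42) and Echs1 was 0.16 against WT + GFP (0.108). Pathway genes called there were 5 higher and 11 lower by KO and 13 higher and 5 lower by LEENE OE. With 10 or more reads required in every library, which left 2083 genes and Fabp4 as the 1 member tested, the members called were 1, 1 and 0, the pathway genes 5, 5 and 4, and all genes 1536, 1505 and 1552. DESeq2 called 3 members by KO and 2 by LEENE OE. Without a filter 2 members were called by LEENE OE, Lpl there was 0.0022 (adjusted P = 1.00), and the calls of Cd36 by KO (0.118) and of Cd36 (0.0582) and Fabp5 (0.0602) by LEENE OE were lost. With the fit limited to the 4 libraries of KO + LEENE and WT + GFP, 1 of 4 tested members was called. Leaving out 1 library at a time, with its group's lone library assumed to vary like the other groups, members called ranged from 4 to 5 by KO, 2 to 4 by LEENE OE (2 without KO + GFP replicate 1 or KO + LEENE replicate 2) and 1 to 3 against WT + GFP (1 without WT + GFP replicate 1), pathway genes from 12 to 17, 16 to 18 and 19 to 21, and all genes from 5719 to 6782, 5501 to 6127 and 5806 to 6642. Signs turned in further values not called in the main test: by LEENE OE Lpl ranged from -0.52 to 0.25 (without KO + LEENE replicate 1) and Acsl1 from -4.20 to 2.54 (without KO + GFP replicate 1), and against WT + GFP Cd36 ranged from -0.88 to 0.13 (0.10 without WT + GFP replicate 1, 0.13 without KO + LEENE replicate 2), Fabp4 from -0.37 (without KO + LEENE replicate 1) to 0.90 (without KO + LEENE replicate 2, where it passed at 0.0140) and Fabp5 from -0.083 (without KO + LEENE replicate 1) to 0.67. The cause was not tested. Deviations of same-numbered libraries from their group means correlated at r of 0.03, 0.01 and 0.02. With most genes near counting error within a group, these values cannot tell whether the replicate numbers pair the libraries. With a replicate block, 5, 4 and 2 members, 14, 17 and 20 pathway genes, and 6072, 5841 and 6147 of all genes were called. Depth limits Gpihbp1, Pparg, Slc27a3 and Slc27a4, whose differences cannot be seen at 3 or fewer reads.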
